A study of Aspergillus niger with 6 samples.

Results

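A set of 110 genes of the citrate-producing fungus Aspergillus niger is described here, out of 9930 genes measured in both deposited tables. Each stayed within a 4-fold range over 6, 12, 24, 36 and 48 h of fermentation at an air supply of 3 vvm, had at least 10 FPKM at 48 h, and was at least 2-fold lower at 48 h when the air supply was 1.5 vvm. FPKM is the number of sequenced fragments scaled by transcript length and by library depth, vvm means volumes of air fed each minute to 1 volume of culture, and ranges and differences were taken on the log2(FPKM + 1) scale, which understates differences of low genes. The first and second limits alone left 5844 genes, called time-stable below, and 110 of them, or 1.88%, met the third. Over all genes of at least 1 FPKM in either library, 2.83% were at least 2-fold lower at 1.5 vvm. The genes were chosen by these very values, so the size of their difference is a description and carries no test.

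RNA was sequenced from pellets of strain H915-1, with 6 libraries in all: 5 times at 3 vvm and 48 h at 1.5 vvm. No genotype change is labelled, so by the labels the groups differ in time and air supply only. Each group had 1 library, so no difference between libraries has a replicate check, and the labels do not say whether the libraries came from 1 fermentation or several. Recovered depth lay between 5062817 and 6708034 fragments per library, the 1.5 vvm library being the deepest. FPKM summed to 1091270 over the shared genes at 1.5 vvm and to 915443 at 48 h and 3 vvm. With both rescaled to a common sum, 218 genes in place of 110 met the rule, 98 of them the same genes. In bulk RNA, fewer cells of a type and less RNA per cell cannot be told apart.

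Aspergillus niger is an obligate aerobe used to make citric acid in aerated, sugar-rich, acidic culture. Glucose is broken down by glycolysis, pyruvate enters the mitochondria, citrate synthase forms citrate there, and citrate is exported. Oxygen takes up the electrons of this metabolism through the cytochrome chain and through an alternative oxidase, an enzyme that passes electrons to oxygen without pumping protons. The supply of air is therefore a main control of the process. The files give the genes as identifiers of a strain-specific gene model set, and 0 of them were found among the 14404 entries of the name table for assembly ASM285v2. The genes are therefore identified below by contig, start and end, in the coordinates of the authors' contigs, and no function is assigned to any of them.

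At 48 h the 110 genes stood at a median of 82.2 FPKM with 3 vvm and 33.2 FPKM with 1.5 vvm. The median log2 difference was -1.24, the quartiles were -1.46 and -1.09, and the lowest value was -2.53. The other 5734 time-stable genes went from a median of 46.9 to 50.4 FPKM, with a median log2 difference of 0.10. Reductions of at least 2-fold were fewer than increases among time-stable genes, since 422 genes (7.22%) were at least 2-fold higher at 1.5 vvm. This balance could depend on the scaling, as the FPKM sum was larger at 1.5 vvm. With a common sum 218 genes met the rule for lower. The higher genes were not recounted, so the balance under that scaling was not measured. At least 4-fold lower were 9 genes, or 0.154% of the time-stable genes.

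**Figure D1:**
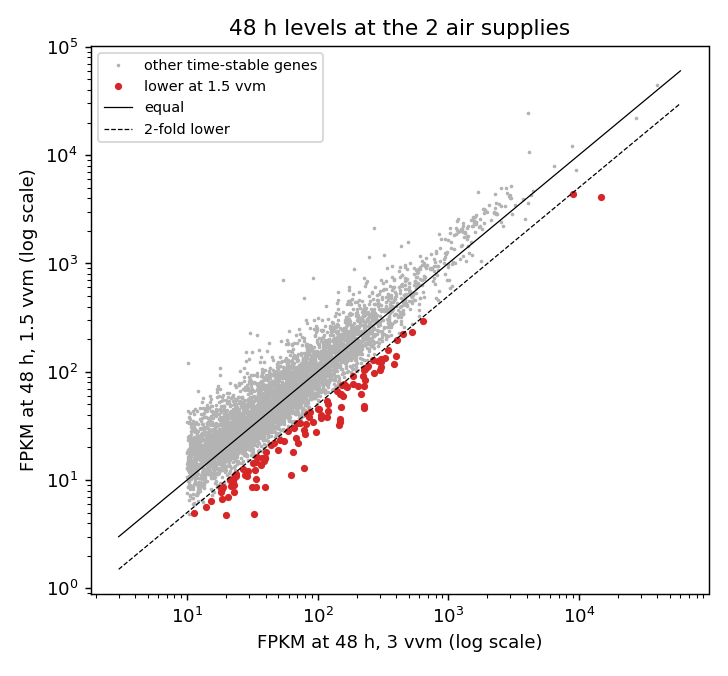
FPKM at 48 h of 5844 time-stable genes, at 3 vvm (horizontal axis, log scale) and at 1.5 vvm (vertical axis, log scale), each point a gene and 1 library per axis. The 110 genes in red lie on or under the dashed line of a 2-fold lower level, from 11.4 to 14669 FPKM at 3 vvm.

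The course of these genes at 3 vvm was less flat than the word stable implies. Of the 110 genes, 88 varied at least 2-fold over the 5 times, against 30% of all time-stable genes, and their median log2 range was 1.40, against 0.71 in the other time-stable genes. From 6 to 48 h their median level was 38.0, 47.3, 46.2, 71.4 and 82.2 FPKM. Between 6 and 48 h the level was 2-fold or more higher in 57 of them, against 10.4% of all time-stable genes. The rule measures from the 48 h library. A high level there helps a gene to pass and also widens its range and its rise from 6 h. The median of the other time-stable genes stayed between 46.0 and 48.5 FPKM over the same times. The level of 33.2 FPKM at 1.5 vvm was thus below the median of the same genes at each of the 5 times, and nearest to that at 6 h.

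**Figure D2:**
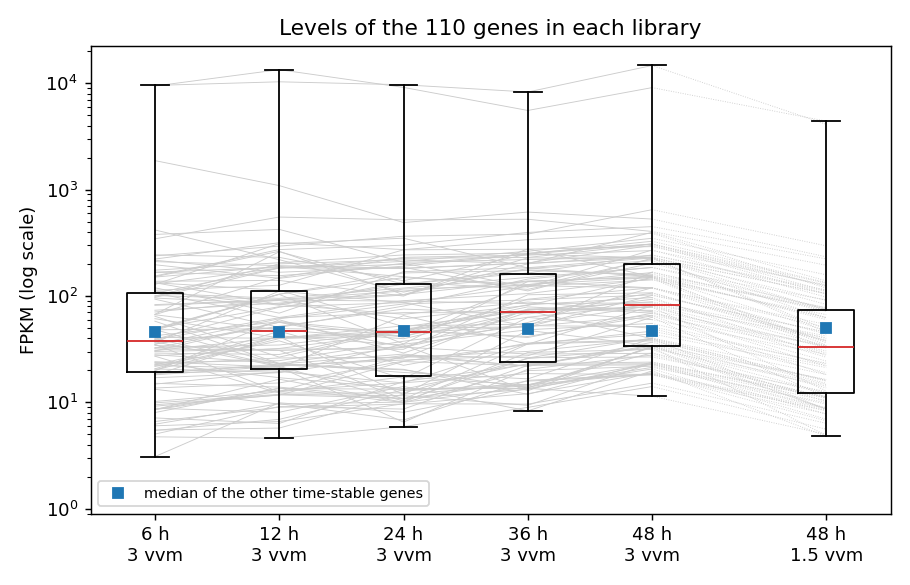
FPKM (log scale) of the 110 genes in each of the 6 libraries. Boxes give the quartiles with the median in red, whiskers reach the lowest and highest gene, grey lines join the values of 1 gene, and blue squares are medians of the other 5734 time-stable genes. The red medians go from 38.0 FPKM at 6 h to 82.2 at 48 h and 33.2 at 1.5 vvm, while the blue squares lie between 46.0 and 50.4.

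Most of the genes were highest at 48 h, the library that the rule set against 1.5 vvm. That held for 78 of the 110 genes, against 18.5% of all time-stable genes, and 55 were lowest at 6 h, against 33.7%. Of the others, 13 peaked at 36 h (24.5% of time-stable genes). A further 8 peaked at 6 h (31.1%), 8 had their peak at 12 h (10.6%), and 3 were highest at 24 h (15.3%). The rule measures from that library, so a high value there helps a gene to pass, and the count depended on this choice. With 36 h as the reference for both limits, 104 genes met the rule, 51 of them among the 110, and 25 were highest at 48 h. With the mean of the 5 libraries at 3 vvm as the reference, 48 genes (0.821% of time-stable genes) met it, 33 of them among the 110, and 12 were highest at 48 h.

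The 6 and 36 h libraries were not part of the aeration contrast, although the range limit used them. Between these times 81 of the 110 genes were higher at 36 h, against 54.5% of all time-stable genes. The median log2 difference of 36 h minus 6 h was 0.65, and it was 0.063 in the other time-stable genes. At least 2-fold higher at 36 h were 40 of the 110 genes, against 10.8% of time-stable genes, and 5 were at least 2-fold lower, against 6.45%. The 422 time-stable genes higher at 1.5 vvm had a median of -0.38 for the same difference. For those genes a low 48 h level helped in the same way, and 43.8% of them were lowest at 48 h. The direction depended on the choice of reference, since the median was -0.060 over the 48 genes chosen against the mean of the 5 libraries.

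The time of highest level divided the genes into courses of different shape. The 78 genes highest at 48 h had medians of 35.3 FPKM (6 h), 65.4 (36 h) and 90.6 (48 h), and of 33.4 with 1.5 vvm. For the 13 genes highest at 36 h the medians were 27.4 FPKM (6 h), 75.5 (36 h), 69.0 (48 h) and 33.7 (1.5 vvm). The 8 genes highest at 12 h had 262 FPKM there, 191 (48 h) and 53.1 (1.5 vvm). Those highest at 6 h, also 8, started from 95.5 FPKM and had 49.9 (48 h) and 19.0 (1.5 vvm). A steady climb was the course of a minority: 20 genes (18.2%) had no drop between consecutive times. That was a larger share than the 5.42% of time-stable genes, but the rule favours a high 48 h level, which raises it. In 39 genes the 24 h level was below both the 12 and the 36 h level, against 27.7% of time-stable genes.

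Set against each library at 3 vvm in turn, the 1.5 vvm library was lower by different amounts. These 5 comparisons share the 1.5 vvm library. The rule chose genes for a low level in it, which also lowers the differences from the other times. No support is drawn from these counts or from their excess over time-stable genes. The median log2 difference of the 110 genes was -0.23 from 6 h, -0.54 from 12 h, -0.66 from 24 h, -0.94 from 36 h and -1.24 from 48 h. At least 2-fold lower were 30 genes relative to 6 h (2.72% of time-stable genes), 27 relative to 12 h (1.56%), 33 relative to 24 h (1.39%) and 51 relative to 36 h (1.71%). The 24 h library was deposited in the same table as the 1.5 vvm library, while the 48 h library was in the other one. Relative to 6 h, 42 of the 110 genes were higher at 1.5 vvm, a smaller share than the 58.5% of time-stable genes.

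**Figure D3:**
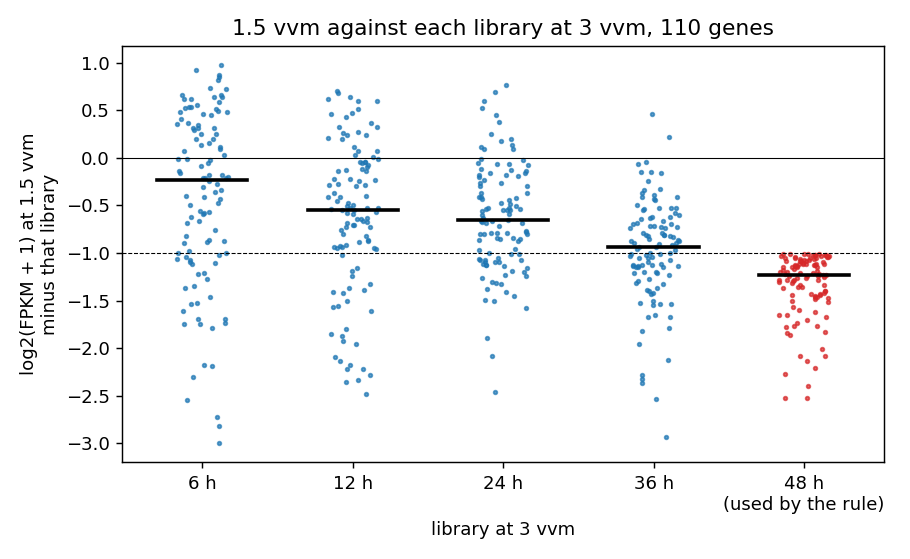
Difference in log2(FPKM + 1) between the 1.5 vvm library and each library at 3 vvm, for the 110 genes. Each point is a gene, black bars are medians, the solid line is equality and the dashed line a 2-fold lower level; the red column was used to choose the genes. The medians go from -0.23 against 6 h to -1.24 against 48 h. In the 6 h column 42 points lie above equality, against 58.5% of time-stable genes (not drawn). All columns share the 1.5 vvm library, which the rule used as well.

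At 1.5 vvm, 60 of the 110 genes were below each of the 5 libraries at 3 vvm, against 14.5% of all time-stable genes. The other 50 of the 110 lay within their own course. The rule already places every gene at least 2-fold below 48 h, which raises the count of 60. For the 22 genes with a range under 2-fold, the rule requires it. The 60 genes had medians of 66.9 FPKM (6 h), 89.6 (48 h) and 32.6 (1.5 vvm). The 50 genes had medians of 28.2, 30.8, 34.2, 54.1 and 76.9 FPKM from 6 to 48 h, and 33.8 FPKM with 1.5 vvm. Their 1.5 vvm level was nearest to the 12 h level in 20 genes, the 24 h level in 19, the 6 h level in 9 and the 36 h level in 2. The 50 genes thus had a level at 1.5 vvm between their own lowest and highest levels at 3 vvm, and the 60 genes did not. This split compares single libraries without a margin. Among the 60, the gene on unitig_3 from 195039 was at 34.1 FPKM, against 35.3 FPKM at 6 h. Whether the 50 and the 60 differ in kind was not tested.

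At 1.5 vvm, 12 of the genes were at least 2-fold below each of the 5 libraries at 3 vvm, or 0.205% of time-stable genes. No time-stable gene outside the set could be, since it would then have met the rule. Their medians lay between 101 FPKM (24 h) and 202 FPKM (36 h) at 3 vvm and stood at 46.6 FPKM at 1.5 vvm. Of these 12 genes, 3 were highest at 48 h, and their median log2 difference of 36 h minus 6 h was -0.091. On unitig_5, the gene from 2424575 to 2426540 was at 243, 231, 139, 247 and 228 FPKM from 6 to 48 h and at 48.7 FPKM at 1.5 vvm. On the same contig, the gene from 968863 to 970557 had 48.1, 49.4, 47.1, 41.6 and 64.9 FPKM over the course and 18.3 FPKM at 1.5 vvm. In both genes each of the 5 libraries at 3 vvm was more than 2-fold above the library at 1.5 vvm.

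The 10 genes with the largest differences had levels at 1.5 vvm below all 5 libraries at 3 vvm. First was evm.model.unitig_3.621 (unitig_3, 2162368 to 2163740), at 19.8, 59.7, 29.1, 70.3 and 78.7 FPKM from 6 to 48 h and 12.8 FPKM at 1.5 vvm. Relative to depth, its fragments (504 and 90) were 6.16-fold fewer at 1.5 than at 3 vvm at 48 h, with an exact 95% counting interval of 4.91 to 7.79. The course of this gene moved up and down, with the 6 h library the nearest to 1.5 vvm. The second, evm.model.unitig_2.310 (unitig_2, 982912 to 983589), had 18.6, 20.2, 12.9, 14.2 and 32.8 FPKM over the course and 4.89 FPKM at 1.5 vvm. It rested on few fragments, 65 and 11, and its 6.50-fold difference had a wider interval of 3.40 to 13.7. These intervals hold counting error alone: the libraries carried no molecular identifiers, so fragments can be copies of 1 molecule.

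**Figure D4:**
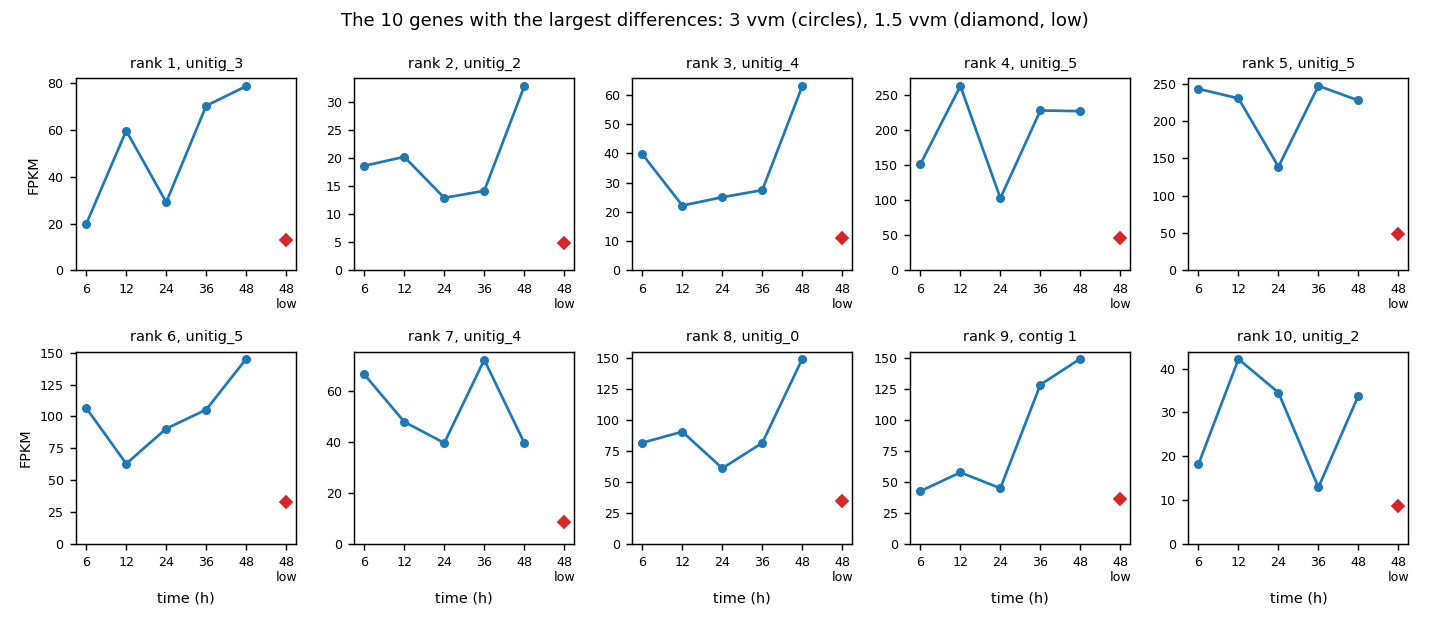
FPKM of the 10 genes with the largest log2 difference, in order of rank, with time on the horizontal axis: circles joined by lines are the 5 libraries at 3 vvm, and the red diamond is 48 h at 1.5 vvm. Each vertical axis starts at 0, and in all 10 panels the diamond lies below the 5 circles, as for the gene of rank 1 with 12.8 FPKM against 19.8 to 78.7.

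The next of these genes differed in when they were high at 3 vvm. On unitig_4, the gene from 1341474 to 1342906 had 39.7, 22.1, 25.01, 27.4 and 63.1 FPKM and 11.2 FPKM at 1.5 vvm. It was more than 2-fold higher at 48 h than at 36 h. On unitig_5, the gene from 380668 to 382147 had 152, 263, 103, 228 and 227 FPKM and 46.2 FPKM at 1.5 vvm, 5.24-fold fewer fragments at 48 h (4.62 to 5.95). Its level at 24 h was the lowest of the 5, but still more than 2-fold above the 1.5 vvm level. The gene on unitig_5 from 3037629 to 3038464 was at 107, 62.8, 90.3, 105 and 145 FPKM, and at 32.4 FPKM at 1.5 vvm. On unitig_0, the gene from 1533180 to 1535095 had 81.6, 90.6, 61.0, 81.5 and 150 FPKM, and 34.5 FPKM at 1.5 vvm. Both were highest at 48 h, and their other 4 libraries lay between 61.0 and 107 FPKM.

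The remaining 3 of these 10 genes showed a late high, a thin count and an up-and-down course. On contig 1, the span from 2798273 to 2800037 had 42.3, 57.4, 44.6, 128 and 149 FPKM and 36.3 FPKM at 1.5 vvm. Its 1.5 vvm level was close to its levels at 6 and 24 h. On unitig_4, the gene from 2554602 to 2555176 had 66.6, 48.0, 39.6, 72.4 and 39.7 FPKM and 8.59 FPKM at 1.5 vvm. This gene had 29 and 7 fragments at 48 h, and its interval reached from 1.95-fold to 12.3-fold fewer. The gene on unitig_2 from 761024 to 764457 had 18.1, 42.2, 34.6, 12.9 and 33.8 FPKM, and 8.59 FPKM at 1.5 vvm.

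Among the 6 genes with the highest level at 48 h, one pair stood far above the rest. The most abundant lay on contig 1 from 934992 to 938115, with 9529, 10307, 9665, 8264 and 14669 FPKM over the course and 4112 FPKM at 1.5 vvm. It held 246249 fragments in the 48 h library at 3 vvm and 74898 in that at 1.5 vvm, 3.62-fold fewer relative to depth (3.59 to 3.64). The gene on unitig_3 from 3238295 to 3240672 was at 9406, 13401, 9128, 5542 and 9090 FPKM and at 4401 FPKM at 1.5 vvm. Its lowest library at 3 vvm, 36 h, was still above the 1.5 vvm library, by less than 2-fold. No other of the 110 genes passed 647 FPKM at 48 h, though one had been higher early on.

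That gene, on contig 1 from 4222814 to 4223812, had 1872, 1091, 490, 615 and 528 FPKM from 6 to 48 h, and 233 FPKM with 1.5 vvm. It was among the 12 genes at least 2-fold below each library. On unitig_1, the gene from 3683099 to 3683729 had 238, 294, 364, 382 and 647 FPKM and 296 FPKM at 1.5 vvm. On unitig_5, the gene from 2413867 to 2414980 was at 154, 273, 300.1, 396 and 449 FPKM, and at 223 FPKM at 1.5 vvm. Both were higher at each later time, and their 1.5 vvm level lay near that at 12 h. The gene on unitig_2 from 675782 to 678680 was at 344, 552, 519, 526 and 404 FPKM and at 195 FPKM at 1.5 vvm, below all 5.

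Genes of the set were found at all levels. The median log2 difference was -1.20 in 41 genes of 10 to 50 FPKM at 48 h and 3 vvm, -1.26 in 41 genes of 50 to 200 FPKM and -1.28 in 28 genes of at least 200 FPKM, where the rule admits only values of -1 or lower in each class. As a share of time-stable genes of the same level, these were 1.33%, 1.93% and 4.44%. The highest level class thus held the largest share, with the rule setting its level limit in the same 48 h library. By range, the share was 0.125% of time-stable genes under a log2 range of 0.5, 0.803% from 0.5 to 1, 3.55% from 1 to 1.5 and 8.27% from 1.5 to 2. The range takes in the same 48 h library, so a high level there can raise the range and help a gene to pass.

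Few of the genes were flat over time in the strict sense, with 22 under a 2-fold range. The smallest range belonged to a gene on contig 1 (2582170 to 2583986), with 70.7, 91.8, 89.3, 84.7 and 86.2 FPKM and 38.3 FPKM at 1.5 vvm. On unitig_3, the gene from 3872718 to 3874040 had 28.1, 23.3, 33.0, 28.4 and 28.9 FPKM, and 11.01 FPKM at 1.5 vvm. Also on unitig_3, the gene from 3796885 to 3799669 had 20.6, 19.1, 27.6, 26.3 and 26.7 FPKM, and 12.6 FPKM at 1.5 vvm. All 22 were below each library at 3 vvm at 1.5 vvm, which a 2-fold range together with a 2-fold difference requires. Their median log2 difference of 36 h minus 6 h was 0.19, and 13 of them were highest at 48 h.

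Position on the genome was not used to choose the genes. Of the 220 places directly beside one of the 110 genes, 20 (9.09%) were held by another of them, while the 110 genes are 1.07% of the 10257 listed genes. In this way 17 genes formed 7 runs, of 4 genes in 1 case, 3 genes in 1 case and 2 genes in 5 cases. The other neighbours were near equality as a group, which was lower than the genes outside the set in general. Whether this is more than a difference of samples was not tested. The 192 neighbours outside the set with both values had a median log2 difference of 0.049, and 47.9% were below 0, against 0.30 and 32.4% over all 9820 genes outside the set. Of these neighbours 105 were time-stable, with a median of -0.044 and 53.3% below 0, against 0.10 and 41.1% over all time-stable genes outside the set. At least 2-fold lower were 2.60% of the 192 neighbours and 1.70% of the 9820 genes. Among the 422 time-stable genes higher at 1.5 vvm, 7.13% of neighbouring places were held by another such gene, where they are 4.11% of listed genes.

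The longest run lay on unitig_4 from 1338689 to 1349548 and held 4 genes, one of them the gene from 1341474. Its first gene (1338689 to 1340390) was at 111, 81.9, 136, 115 and 203 FPKM over the course and at 74.5 FPKM at 1.5 vvm. The third (1346000 to 1347483) had 130, 183, 226, 230.1 and 307 FPKM, and 112 FPKM at 1.5 vvm. The fourth (1348846 to 1349548) had 197, 146, 203, 121 and 222 FPKM, and 90.8 FPKM at 1.5 vvm. All 4 were highest at 48 h, and their log2 differences lay between -2.40 and -1.28. The genes on both sides were lower too: the one before (1336174 to 1338113) was at 600 and 329 FPKM at 3 and 1.5 vvm, and the one after (1349914 to 1358218) at 168 and 42.8 FPKM. The latter had been at 39.1 FPKM at 6 h, and its range passed the 4-fold limit.

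The run on unitig_3 from 194634 to 198329 held 3 genes, with gaps of 150 and 49 bases between them. Their medians were 39.2, 78.4, 116, 125 and 119 FPKM over the course and 54.1 FPKM at 1.5 vvm. The first of them (194634 to 194888), with 255 bases the shortest of all 110 genes, had 24 and 13 fragments at 48 h, and its interval reached from 0.993-fold to 4.34-fold fewer. The second (195039 to 196696) was at 35.3, 51.9, 75.3, 67.7 and 93.0 FPKM, and at 34.1 FPKM at 1.5 vvm. The third (196746 to 198329) had 47.5, 104, 149, 128 and 166 FPKM, and 73.6 FPKM at 1.5 vvm. At 1.5 vvm the first and the third were above their 6 h level and the second was just below it.

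The 5 pairs spread over 3 contigs. On unitig_5, the gene from 380668 stood beside the gene from 378182 to 379704, which was at 22.5, 41.5, 11.9, 47.5 and 34.1 FPKM and at 10.2 FPKM at 1.5 vvm. Both genes of this pair were high at 12 and 36 h and low at 24 h. On unitig_3, the abundant gene from 3238295 stood 1018 bases from the gene from 3235204 to 3237276, which was at 150, 190, 152, 122 and 270 FPKM and at 97.6 FPKM at 1.5 vvm. The pair on unitig_3 from 805137 to 808390 had medians of 22.4 FPKM at 48 h and 3 vvm and 8.28 FPKM at 1.5 vvm. Of the genes next to that pair, one (808433 to 809448) was at 0.86 and 9.33 FPKM, with 4 and 46 fragments. The other (802176 to 804446) was at 1.79 and 1.97 FPKM, with 20 and 23 fragments and a log2 difference of 0.09. On unitig_2, the pair from 2211226 to 2216306 had medians of 64.9 and 26.3 FPKM at 48 h, and the pair from 3303486 to 3304772 had 28.0 and 11.8 FPKM. No listed span overlapped the next, and the use of strand in counting is unknown here.

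**Figure D5:**
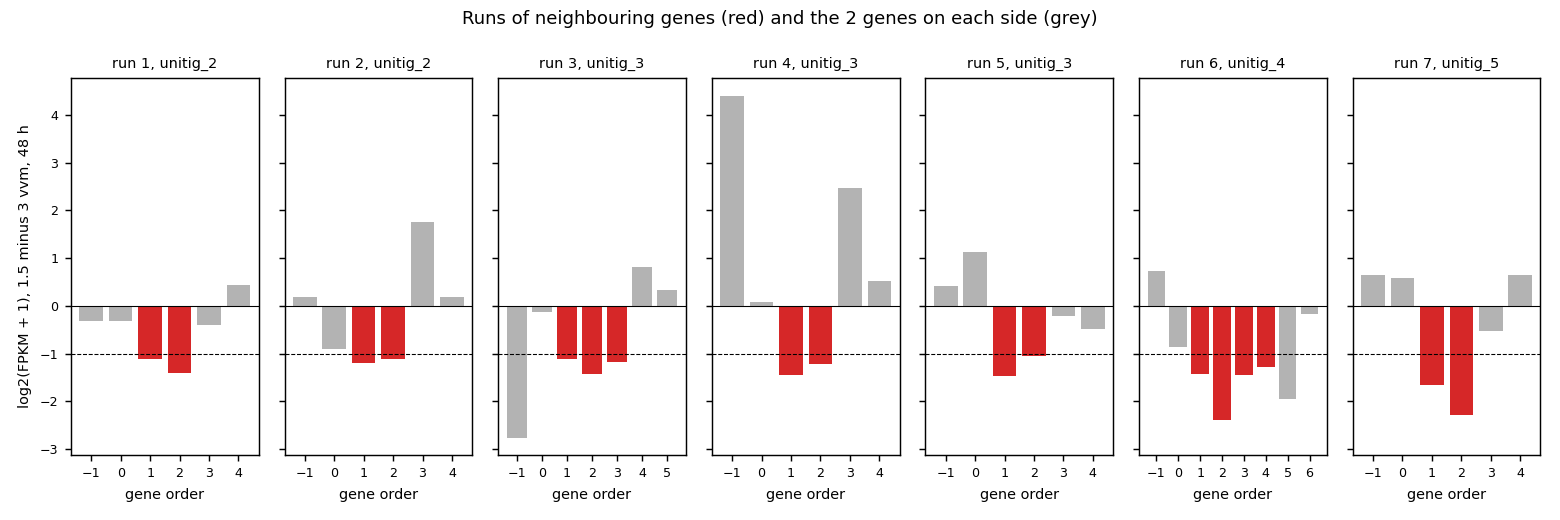
Difference in log2(FPKM + 1), 1.5 minus 3 vvm at 48 h, for the 7 runs of neighbouring genes (red) and 2 listed genes on each side (grey), in their order on the contig; the dashed line is a 2-fold lower level. Red bars lie between -2.40 and -1.05, and grey bars reach from -2.76 beside the third run to 4.41 beside the fourth.

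Of all time-stable genes 1.88% belonged to the set, and the share differed between contigs. On unitig_3, 23 of 582 time-stable genes belonged to the set, or 3.95% (exact 95% binomial interval 2.52 to 5.87). The share was 2.64% on unitig_2 (1.64 to 4.01), 2.52% on unitig_5 (1.38 to 4.19), 1.99% on unitig_4, 1.60% on unitig_0, 1.24% on unitig_1, 0.923% on unitig_6 and 0.722% on contig 1 (0.235 to 1.68). Genes of 1 run are counted here as if independent, which makes the intervals too narrow. The interval of each contig listed here held 1.88%, except those of unitig_3 and contig 1. Wider intervals might hold it there too, and no allowance was made for reading several contigs. Genes higher at 1.5 vvm made up 6.19% of time-stable genes on unitig_3 and 7.79% on contig 1. Within 100 kb of an end of a long contig lay 4 of the 110 genes (3.64%) and 1.45% of time-stable genes. The span from start to end had a median of 1697 bases in the 110 genes and 1557 bases in the other time-stable genes, and the longest was 6680 bases (unitig_5, 2176466 to 2183145).

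Depth differed widely between the genes. At 48 h they had a median of 638.5 fragments with 3 vvm and 257.5 with 1.5 vvm, and 36 of them were under 100 fragments at 1.5 vvm. The exact 95% counting interval of the ratio relative to depth lay wholly below 1 in 107 genes (27.3% of time-stable genes) and wholly below a 2-fold lower ratio in 68 (1.16% of time-stable genes). This is the ratio that chose the genes, so nothing is read from these counts. Besides the short gene on unitig_3, the genes whose interval reached 1 were the gene on unitig_0 from 1107558 to 1108057, with 3 and 1 fragments, and the gene on unitig_5 from 292928 to 293185, with 5 and 3. The latter was at 18.9, 22.9, 20.4, 11.9 and 23.9 FPKM and at 11.3 FPKM at 1.5 vvm, values that so few fragments hardly tell apart. The median fold over the 110 genes was 2.51.

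The 2-fold limit cut through a continuous range of values. Just inside it were the gene on unitig_5 from 2413867 with a log2 difference of -1.01, the gene on unitig_1 from 4604040 to 4605580 at 185 and 91.7 FPKM, and the gene on unitig_5 from 292928. Just outside were the genes on unitig_1 from 1885224 to 1886384 (52.0 and 25.6 FPKM) and from 1746474 to 1747906 (46.7 and 23.0 FPKM), and the gene on unitig_0 from 890654 to 891418 (10.7 and 4.86 FPKM). At the range limit, the gene on unitig_3 from 2799260 to 2800618 was inside with a log2 range of 1.999 (18.1 to 75.5 FPKM over the course). Just outside it was the gene on unitig_4 from 1270143 to 1271380, at 3.15 to 15.6 FPKM over the course and 6.09 FPKM at 1.5 vvm. Without a range limit, 253 genes of at least 10 FPKM were at least 2-fold lower at 1.5 vvm, and the 110 genes are 43.5% of them.

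Outside the set, the genes with the most similar course over the 6 libraries missed the 2-fold limit only. Likeness was the Euclidean distance of log2 values, centred on each gene's own mean, from the median profile of the 110 genes, over genes of at least 10 FPKM at 48 h. The nearest, on unitig_1 from 4556732 to 4560456, was at 19.4, 26.3, 28.4, 37.3 and 40.9 FPKM and at 21.0 FPKM at 1.5 vvm, at a distance of 0.304. The others were on contig 1 from 121213 to 122633 (0.319) and on unitig_3 from 747986 to 750735 (0.351). Within the set the distance went from 0.190 to 2.52 with a median of 0.917, so these genes lay nearer to the median profile than most of the 110 genes did.

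As a count test, edgeR's quasi-likelihood test was run on the recovered fragments of 9507 genes with log2 time and aeration as terms. The aeration term fits the 1.5 vvm library exactly, and the spread is the deviation of libraries from a line in time, not between replicates. At a Benjamini-Hochberg adjusted p below 0.05, 161 genes (1.69%) were called lower at 1.5 vvm and 711 (7.48%) higher. Of the 109 genes of the set that were tested, 37 were called lower and 0 higher, and at an unadjusted p below 0.05, 92 were lower, against 1114 of all genes tested (11.7%). The rule used the same contrast, so nothing is read from these counts. When the time term was linear in hours, 46 genes were called lower and 292 higher, and 16 of the set were lower. With upper quartile scaling, 106 were lower and 1014 higher, and 29 of the set were lower. The time term called 34 of them as having risen (9.12% of all genes tested) and 2 as having fallen (8.79%). The rule used these libraries as well.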

How the data were processed

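The authors deposited FPKM in a pair of tables, per the file headers. Tools named in the submitters' processing notes are TopHat2 2.0.9 and Cufflinks 2.1.1. Neither a genome build nor an annotation is given in the sources used here. The authors' count columns are a signal, scaled to 1 total per table. Dividing by the smallest step gave whole fragments, within 0.1, for at least 99.9% of values in each library. The tables were merged by locus: 23 genes were listed only in the time course and 304 only beside 1.5 vvm, and 24 h FPKM was identical at all 9930 shared loci. A further 4 columns, copies of used ones under group names that match no label, were not used. Starts were raised by 1 to count from 1.

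Differences are on log2(FPKM + 1), without a test. Genes were named as those with the 10 largest differences, the 6 highest levels, the 4 smallest ranges, the runs, the longest and shortest span, the edges of the limits and the 3 most alike. Of these, the fourth smallest range is the gene on unitig_5 from 968863. The members and lists were chosen with earlier results of these data known. Intervals are exact 95% binomial (Clopper-Pearson). edgeR 4.0.16 in R 4.3.3 used TMM, genes of at least 15 fragments in total and Benjamini-Hochberg adjustment; size factors of DESeq2 1.42.0 were an alternative. Both steps were tested on simulated data.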

Additional observations from a re-analysis of the deposited data

How the results depend on the processing

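With 1 library per group there was no spread between replicates, and no replicate could be left out. No paired analysis was possible because each group has 1 library. The number of genes stayed within 1.5 times of 110, between 100 and 159, with a pseudocount of 0.1 (119) or 5 FPKM (100), no minimum level (120), the common median level (147), the median of silent genes (1.57 FPKM) taken off at 1.5 vvm (151), unlisted genes as 0 (110), and the range taken without the 6 h (159), 12 h (118), 24 h (115) or 36 h library (118). It was 118 with depth-scaled fragments in place of FPKM and 104 with 36 h as the reference, both added after the data were seen. The median log2 difference lay between -1.36 and -0.99 under all 16 alternatives. Except with 36 h or the mean of the 5 libraries as the reference, each setting again chose genes at least 2-fold lower than at 48 h. The median could therefore not come out smaller than 2-fold there, and nothing is read from its steadiness. Where the number of genes moved by over 1.5 times, counts are given in order of genes in the set, below every library at 3 vvm, highest at 48 h, beside another gene of the set, and at least 2-fold below 24 h. They were 218, 118, 149, 40 and 65 with a common sum, which shifted 1.5 against 3 vvm by -0.25 on the log2 scale over genes of at least 10 FPKM. Under a 2-fold range they were 22, 22, 13, 0 and 11. With at least 50 FPKM, they were 69, 41, 50, 11 and 26, and against the mean of the 5 libraries 48, 47, 12, 2 and 34. Under these last settings the counts below every library and 2-fold below 24 h stayed within 1.5 times of 60 and 33. Against the mean, the median of 36 h minus 6 h was -0.060 in place of 0.65. With 36 h as the reference, 25 were highest at 48 h and 8 were neighbours, and at the common median level 26 were neighbours. The interval lay below a 2-fold lower ratio in 68 genes in place of 107. Calls of edgeR over both terms were 2575, and 750 with time in hours, where aeration had 46 lower and 292 higher calls in place of 161 and 711. Upper quartile scaling gave 106 and 1014. Except for the interval, where the limit itself differs, and the fewer genes that stricter limits leave, the cause was not tested.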
